A study of Rattus norvegicus with 18 samples.

Results

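Cyclosporin A was added during a hyperosmotic challenge of primary cultured inner medullary collecting duct (IMCD) cells of the rat, and its effect on the transcriptome was read as the difference between 3 arrays with the drug and 3 arrays without it. These 6 arrays, of 18 in the series, are those whose titles name the 900 challenge without or with the drug. The cells had been grown at 600 mosmol/kg and were moved to 900 mosmol/kg for 24 h, without the drug (the 900 challenge) or with 5 µM cyclosporin A for the same 24 h. The other 12 arrays, 3 to a group, came from cells kept at 300 or at 600 mosmol/kg and from cells grown at 300 and challenged with 600 mosmol/kg over 24 h, again with the drug at 5 µM or without it (the 600 challenge). A single dose and a single time point were used, and no group received the drug without an osmotic step, so a drug effect on unchallenged cells and an effect that needs the step cannot be told apart. The labels name no vehicle, and they leave unsaid whether arrays of 1 group stem from different animals or dishes. The p-values therefore rest on a spread between arrays that may be technical only. Markers of the labelled cell type were present at the 900 challenge: the water channel gene Aqp2 stood at 7.94 ± 0.07 (SD, n = 3), the vasopressin receptor gene Avpr2 at 6.73 ± 0.10 and the urea transporter gene Slc14a2 at 7.02 ± 0.10, with array medians between 3.56 and 3.65. Of 21 principal cell genes 2 had means under 2.605, the median of the arrays' lower quartiles, the sodium channel subunit genes Scnn1b (1.95) and Scnn1g (2.20). Markers of other cell types were present too: the mean level was 5.54 over the principal cell genes, 5.12 over 12 endothelial and 5.08 over 9 loop of Henle genes, with 0 of either under 2.605, and 4.57 over 14 fibroblast genes with 3 under it.

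IMCD cells line the end of the kidney tubule, where the surrounding fluid is saltier than blood and cells survive by taking up or making organic osmolytes. Cyclosporin A is a cyclic peptide immunosuppressant. It binds cyclophilins, and the complex inhibits calcineurin, a calcium-dependent phosphatase that releases NFAT transcription factors to the nucleus. In the clinic its use is limited by kidney toxicity.

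Each of 28328 features was tested with limma. Values are on a log scale of unstated base, so differences are in log units: a difference of 1 is 2-fold for base 2 or 2.72-fold for the natural logarithm. Cyclosporin A left most of the transcriptome of the 900 challenge without a call and shifted 143 features, 101 higher and 42 lower (0.505%, 0.357% and 0.148% of features), at a Benjamini-Hochberg adjusted p under 0.05. Secreted inflammatory mediators and enzymes of lipid synthesis were prominent among the rises, and smooth muscle-type contractile genes and connective tissue growth factor (Ccn2) were among the falls. The sizes were small: 53 called features differed by at least 0.5 units and 3 by at least 1 unit, beside a median difference of -0.00 over all features. The median called rise was 0.39 units, and the median called fall -0.51. Each of the 143 had its 3 values with the drug all above or all below the 3 without it, which held for 15.8% of all features (8.3% higher and 7.47% lower). Of the called features, 120 carried 1 gene symbol, for 119 genes (86 higher and 33 lower), and 23 have no symbol in the table used.

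The calls draw on the spread over all 18 arrays. A limma fit of the 6 arrays alone called 0 features (2446 at an unadjusted p under 0.05, smallest adjusted p 0.128), and leaving out any 1 of the 6 arrays from the full fit left 43 to 76, with 43 when the first drug array was left out. Of 70 called features followed through the latter fits (the genes named for size and the called list members), 23 were called in all 6, 28 in some and 19 in none.

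**Figure D1:**
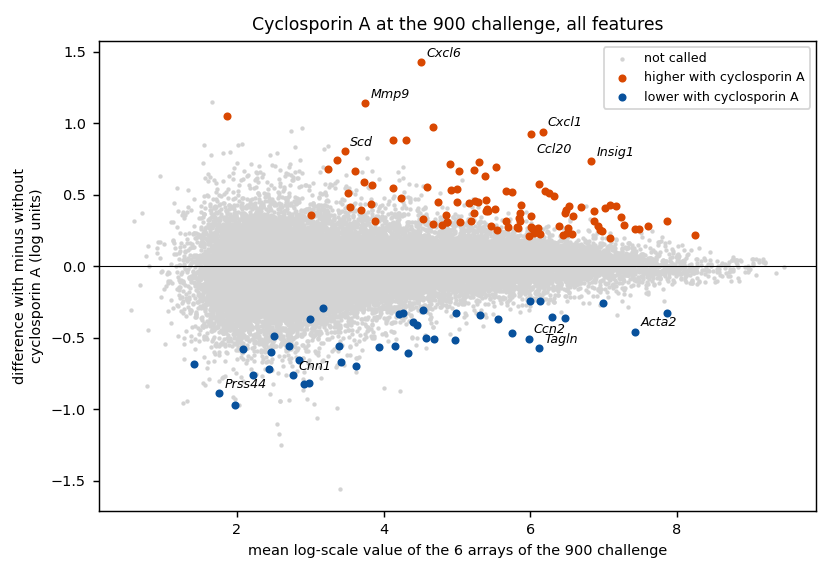
Difference with minus without cyclosporin A at the 900 challenge (log units, vertical) against the mean log-scale value of the 6 arrays (horizontal), 1 point per feature. Called rises (101, orange) run up to Cxcl6 at 1.43, and called falls (42, blue) include Acta2 at -0.46 at a high level; grey features at low levels scatter as widely without being called.

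The largest rise was in a chemokine gene, and 5 of the 10 largest rises of named genes were in chemokines. Of 32 chemokine genes measured, 6 rose, 0 fell and 26 did not pass, with a list median of 0.11. Cxcl6, a CXC chemokine that acts on neutrophils, read 3.62, 4.08 and 3.68 without the drug and 5.27, 5.29 and 5.10 with it. All 3 drug arrays lay more than 1 unit above every array without it. The rise of 1.43 ± 0.13 units (SE, adjusted p = 8.19e-05) is 2.69-fold with base 2 and 4.18-fold with a natural logarithm. Cxcl1, a neutrophil attractant of the same family, read 5.77, 5.66 and 5.67 without and 6.65, 6.66 and 6.61 with cyclosporin A. The groups were tight and far apart, and the rise was 0.94 ± 0.07 (adjusted p = 6.52e-05). Ccl20, which attracts dendritic cells and lymphocytes through the receptor CCR6, read 5.51, 5.50 and 5.64 without and 6.49, 6.62 and 6.30 with the drug. Its groups did not overlap either, and it rose by 0.92 ± 0.08 (adjusted p = 8.19e-05). Cxcl3, a relative of Cxcl1, read 3.89, 3.92 and 3.26 without and 4.52, 4.72 and 4.47 with the drug, a rise of 0.88 ± 0.14 (adjusted p = 0.0109). One array without the drug was lower than the other 2, and the rise was 0.66 with that array left out (adjusted p = 0.00436). These 4 genes were called in each of the 6 fits that left out 1 array.

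Cxcl2, the fourth neutrophil attractant of the Cxcl1 family, read 4.29, 4.19 and 4.09 without and 5.18, 5.01 and 5.31 with the drug. Its rise of 0.98 ± 0.19 was as large as that of Cxcl1 with a larger error (adjusted p = 0.0338), and with any 1 array left out it stayed between 0.91 and 1.05 at adjusted p of 0.0534 to 0.136. Ccl7, a monocyte attractant, rose by 0.29 (adjusted p = 0.0267, and 0.0663 to 0.112 with 1 array left out). The abundant monocyte attractant Ccl2 differed by 0.10 and did not pass (adjusted p = 0.424). Cxcl10 (0.24, adjusted p = 0.458) and Cxcl11 (0.33, adjusted p = 0.0954), which attract T cells, did not pass either. Of the 32 genes, 9 had means both without and with the drug under 2.605, the median of the arrays' lower quartiles. Values there are not shown to stand above background.

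The deposited values hold no binding data, but promoter sequence was available for 67 of the 86 genes that rose and 25 of the 33 that fell. The 250 bases before each start were searched on both strands for GGG and TTTCC with any 2 bases between them, a consensus of NF-kB, the factor that drives many chemokine genes. It was present in 6 of the 67 (8.96%) and 0 of the 25, beside 1.37% of 27457 genes with a promoter entry. The stretches around it are shown because they come from 4 of the chemokine genes above and from Nfkbiz, an NF-kB cofactor that also rose. They are RefSeq sequence of build GRCr8, 5′ to 3′ on the gene's strand, with the matches in capitals (a match on the other strand reads GGAAA, any 2 bases and CCC). They lie at chr14:17596471-17596530 (Cxcl6, minus strand), chr14:17479371-17479448 (Cxcl1, minus), chr14:17467275-17467354 (Cxcl2, minus), chr9:91837045-91837104 (Ccl20, plus) and chr11:58251683-58251720 (Nfkbiz, plus). The sixth gene, Tmem209, is named only because its promoter held the motif. Cxcl6, Cxcl1 and Cxcl2 lie close together on the same strand of chr14, so their matches may not be independent of each other.
Cxcl6: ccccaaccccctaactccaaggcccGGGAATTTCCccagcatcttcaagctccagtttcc
Cxcl1: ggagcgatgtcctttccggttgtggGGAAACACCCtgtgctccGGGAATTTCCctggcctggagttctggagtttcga
Cxcl2: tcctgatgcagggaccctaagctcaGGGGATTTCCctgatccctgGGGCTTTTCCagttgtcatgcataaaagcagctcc
Ccl20: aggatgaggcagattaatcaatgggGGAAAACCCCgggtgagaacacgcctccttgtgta
Nfkbiz: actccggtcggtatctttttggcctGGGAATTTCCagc

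Cxcl6, Cxcl1 and Nfkbiz share the same 10 letters, and Cxcl1 and Cxcl2 hold 2 matches each. The AP-1 motif TGANTCA was in 6 of the 67 promoters of genes that rose (8.96%) and 0 of the 25 of genes that fell, beside 6.99% of all. The NFAT5 core TGGAAANNN was in 13 (19.4%) and 7 (28%), beside 20.7% of all, and the C/EBP motif TTNNGNAA in 22 (32.8%) and 8 (32%), beside 38.7%. Rarer motifs were the cAMP element TGACGTCA with 1 and 2 (1.78% of all), the ATF4 motif TGATGNAA with 2 and 3 (3.58% of all) and the sterol element TCACNCCAC with 2 and 0 (1.09% of all). A match is a run of letters in this window and not a measured binding site.

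Among cytokine and TNF family genes, 4 of 25 measured rose and 0 fell (list median 0.20). Csf3, granulocyte colony-stimulating factor, read 4.43, 4.63 and 4.58 without and 5.31, 5.15 and 5.32 with the drug, a rise of 0.72 ± 0.06 (adjusted p = 8.19e-05). The groups were separate, and the call held with any 1 array left out. Il1b, the secreted inflammatory cytokine interleukin-1 beta, read 3.20, 2.77 and 2.74 without and 3.70, 3.43 and 3.61 with the drug. It rose by 0.68 ± 0.11 (adjusted p = 0.0159) from a level little above the lower quartile, and was called in 2 of the 6 fits with 1 array left out (adjusted p 0.00122 to 0.0851). Il1a, the related interleukin-1 alpha, rose by 0.43 ± 0.08 (adjusted p = 0.0289) and Csf1, the macrophage growth factor, by 0.24 (adjusted p = 0.034). With 1 array left out, Il1a was called in 0 and Csf1 in 1 of the 6 fits. Tnf itself differed by 0.20 (adjusted p = 0.362), the TNF relative Tnfsf15 by 0.52 (0.0617) and Lif by 0.27 (0.0554), and none of these passed.

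The NF-kB list, factors of that pathway with its feedback and target genes, had 4 of 18 measured members higher, 0 lower and a median of 0.22. Birc3, which encodes an inhibitor of apoptosis in TNF signalling, rose by 0.37 ± 0.05 (adjusted p = 0.00362), and Sod2, the mitochondrial superoxide dismutase, by 0.28 ± 0.04 (0.00572). Both calls held with any 1 array left out. Zc3h12a, an RNase that degrades cytokine transcripts, rose by 0.54 ± 0.10 (0.028), and Nfkbiz by 0.25 ± 0.05 (0.0233). Each of these was called in 1 of the 6 fits with 1 array left out (adjusted p 0.0494 to 0.122 and 0.0144 to 0.110). The inhibitor gene Nfkbia (0.20, adjusted p = 0.121), the adhesion gene Icam1 (0.25, 0.191) and Nos2, the inducible nitric oxide synthase (0.70, 0.0514), did not pass. Of 25 interferon response genes 0 were called by limma (median 0.10), and 9 were higher at an unadjusted p under 0.05. Over all 28328 features, 2990 were at an unadjusted limma p under 0.05, 1577 higher and 1413 lower.

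Leukocyte markers were measured beside these genes, since leukocytes also make chemokines. Of 19 measured, 1 rose and 0 fell (median 0.02), and their summed log values ranged from 61.7 to 62.2 without and from 60.3 to 61.9 with the drug. None was at 0, and 6 of 19 had means under the lower quartile in either group, among them the T cell gene Cd3e (2.41 and 1.98), the macrophage gene Aif1 (2.40 and 2.43) and Tyrobp (2.06 and 2.16). The one that rose was the Fc receptor chain gene Fcer1g (0.39, adjusted p = 0.0495, called in 0 of 6 fits with 1 array left out). The pan-leukocyte gene Ptprc differed by 0.33 (adjusted p = 0.203). Differences in this list ran from -0.43 to 0.39, and 11 of 19 were above 0. At an unadjusted limma p under 0.05, 2 were higher and 2 lower. The part of leukocytes in the chemokine values was not tested.

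**Figure D2:**
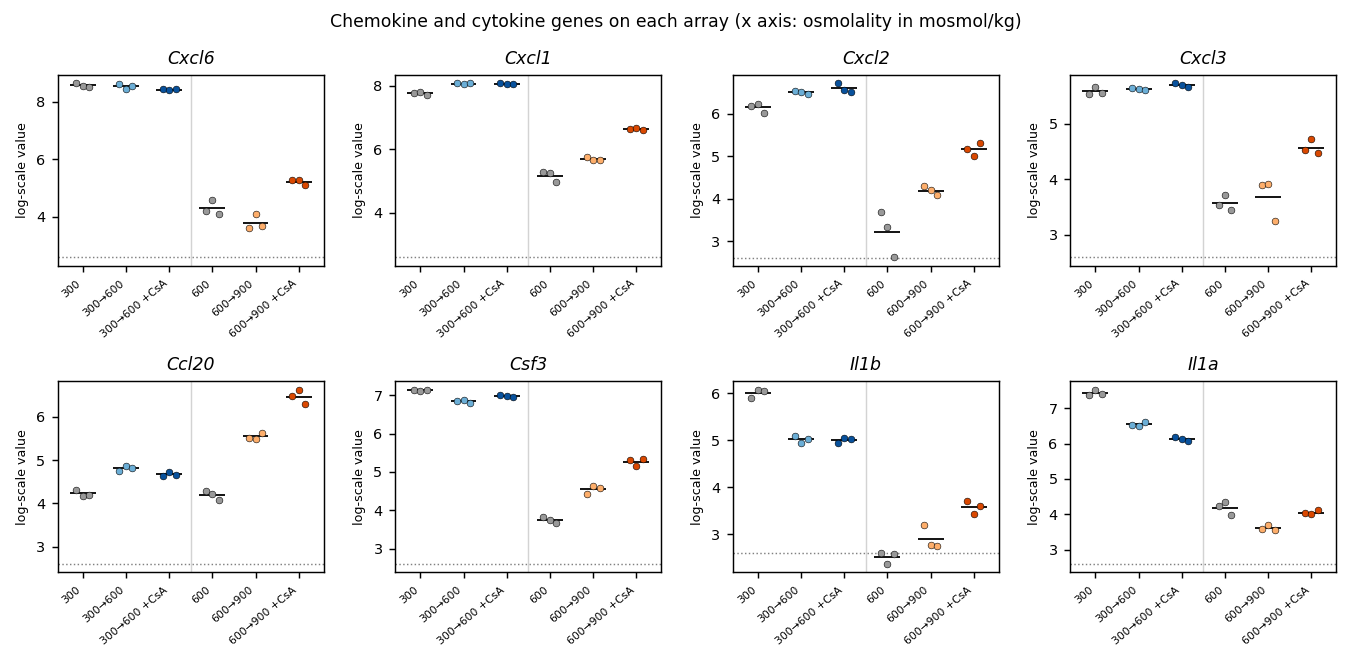
Log-scale values of 8 inflammatory genes on each of the 18 arrays (points, 3 per group) with group means (bars), by osmolality in mosmol/kg and cyclosporin A (CsA); the dotted line is the median lower quartile, 2.605. For Cxcl6, the drug arrays of the 900 challenge lie near 5.2, above the 900 challenge without it and below the 600 challenge at 8.54.

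In the prostaglandin list 1 of 19 genes rose and 0 fell (median 0.02). It was Ptgs2, the inducible cyclooxygenase that makes prostaglandin H2, with 5.19, 5.05 and 4.96 without and 5.81, 5.71 and 5.58 with the drug. The groups did not overlap, and the rise was 0.63 ± 0.11 (adjusted p = 0.0193), called in 2 of 6 fits with 1 array left out (0.0334 to 0.102). Ptges, the prostaglandin E synthase downstream of it, differed by 0.02 (adjusted p = 0.974) and the constitutive cyclooxygenase gene Ptgs1 by -0.03. Among 20 matrix proteases and their inhibitors, 1 rose and 1 fell (median 0.06). Mmp9, the gelatinase that cleaves basement membrane collagen, read 3.01, 3.39 and 3.14 without and 4.37, 4.36 and 4.23 with the drug. It rose by 1.14 ± 0.11 (adjusted p = 0.000159), the second largest rise of a named gene, with no overlap and a call in all 6 fits. Adamts5, which cleaves aggrecan, fell by 0.56 (adjusted p = 0.0218, called in 2 of 6 fits).

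Genes of lipid synthesis formed the other large group of rises. In the sterol list 10 of 20 measured genes rose, 0 fell and all 20 differences were above 0 (median 0.27). In the fatty acid list 6 of 15 rose and 0 fell (median 0.22). These pathways are switched on together by the SREBP transcription factors when membrane sterols are short. Along the path to cholesterol, Acat2, which joins the first acetyl units, rose by 0.52 ± 0.07 (adjusted p = 0.00289), and Idi1, the isopentenyl diphosphate isomerase, by 0.53 ± 0.08 (0.00903). Fdft1, squalene synthase, rose by 0.42 ± 0.06 (0.00572). Cyp51, lanosterol demethylase, read 6.89, 6.92 and 6.81 without and 7.29, 7.26 and 7.36 with the drug. Its arrays were tightly grouped, and the rise was 0.43 ± 0.05 (adjusted p = 0.000558). Sc5d, a late desaturase of the pathway, rose by 0.42 ± 0.05 (0.00111). All 5 were called with any 1 array left out.

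Fdps (0.35), Lss (0.43), Msmo1 (0.26) and Nsdhl (0.23), enzymes between these steps, rose as well, at adjusted p of 0.00836, 0.0414, 0.0222 and 0.0441. With 1 array left out Fdps was lost only without the first drug array (0.32, adjusted p = 0.0551), Nsdhl was called in 1 of 6 fits, and Lss and Msmo1 in 0. Insig1, which holds SREBP in the endoplasmic reticulum and is itself a target, has 2 features. One read 6.47, 6.43 and 6.49 without and 7.11, 7.28 and 7.20 with the drug, a rise of 0.73 ± 0.08 (adjusted p = 0.000558), and the brighter one rose by 0.38 ± 0.06 (0.0146). Both features rose, by different amounts. Srebf2, which encodes the sterol-responsive SREBP, differed by 0.16 and did not pass (0.116).

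Of the fatty acid genes, Fads2, the delta-6 desaturase of polyunsaturated fatty acids, read 4.87, 5.00 and 4.95 without and 5.66, 5.63 and 5.71 with the drug. The groups lay clearly apart, and the rise was 0.73 ± 0.06 (adjusted p = 8.19e-05). Scd, a stearoyl-CoA desaturase, read 3.12, 2.97 and 3.10 without and 3.68, 3.97 and 3.97 with the drug. It rose by 0.81 ± 0.12 (0.00816) and its relative Scd2 by 0.32 ± 0.04 (0.00323). Fasn, fatty acid synthase, rose by 0.45 ± 0.07 (0.00836). These 4 held with any 1 array left out, while Acly (0.27, adjusted p = 0.0418) and Acsl4 (0.22, 0.0476), which make acetyl-CoA and activate arachidonic acid, were called in 0 of the 6 fits.

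Genes for folding in the endoplasmic reticulum moved the same way by less. Of 22 ER chaperone genes, 5 rose and 0 fell, and all 22 differences were above 0 (median 0.19). They were the chaperones Hspa5 (BiP, 0.22 ± 0.04, adjusted p = 0.0223) and Hsp90b1 (GRP94, 0.35 ± 0.06, 0.0299), the secreted factor Manf (0.35, 0.046), the disulfide isomerase Pdia6 (0.25, 0.0435) and the co-chaperone Dnajc3 (0.23, 0.0451). With 1 array left out, Hspa5 was called in 2 of 6 fits and the other 4 genes in 0. Ficd, an ER enzyme that modifies BiP, rose by 0.74 ± 0.14 (0.0275) but likewise in 0 of 6 such fits (0.0780 to 0.120). The cytosolic heat shock list had 0 of 19 members called (median 0.04, with 3 higher and 1 lower at an unadjusted p under 0.05), and its osmotic stress chaperones Hspa4l and Hsph1 differed by 0.03 and 0.04.

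Among 28 targets of the stress factors ATF4 and CHOP, 3 rose and 0 fell (median 0.17). Slc7a3, a cationic amino acid transporter, rose by 0.54 ± 0.08 (adjusted p = 0.00616) in a call that held with any 1 array left out. Slc7a11, the cystine transporter that feeds glutathione synthesis, rose by 0.67 ± 0.12 (0.0222, called in 1 of 6 fits), and Gdf15, a secreted stress hormone, by 0.57 ± 0.11 (0.0405, called in 0). Trib3 (0.55, adjusted p = 0.0954) and Ddit3, the gene for CHOP (0.26, 0.479), did not pass. Chac1, a glutathione-degrading enzyme, had the lowest difference of the list, -0.93 ± 0.25, and did not pass (0.142). Of 21 targets of the oxidative stress factor NRF2, 3 rose (median 0.19): Slc7a11, which is on both lists, the glutathione peroxidase gene Gpx2 (0.39, 0.0247) and Ugdh (0.27, 0.0233). Gpx2 was called in 2 and Ugdh in 1 of the 6 fits with 1 array left out. The classic targets Hmox1 (0.34, 0.0874) and Nqo1 (0.28, 0.0617) did not pass.

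Contractile genes of the smooth muscle type were lower with the drug. Of 13 measured, 4 fell and 0 rose, and all 13 differences were below 0 (median -0.24). Acta2, smooth muscle alpha-actin, read 7.63, 7.69 and 7.66 without and 7.25, 7.15 and 7.21 with the drug. The groups were tight and separate, and the difference was -0.46 ± 0.04 (adjusted p = 0.000126), called in all 6 fits with 1 array left out. Tagln, the actin-binding protein transgelin, read 6.212, 6.557 and 6.435 without and 5.767, 5.721 and 5.996 with the drug, a difference of -0.57 ± 0.09 (0.0144). Cnn1, calponin 1, read 2.77, 3.40 and 3.26 without and 2.38, 2.37 and 2.39 with the drug (-0.76 ± 0.15, 0.0431). Its values with the drug lie under the lower quartile, so the size of the fall is less sure. Cald1, caldesmon, fell by 0.24 (0.046), and with 1 array left out Tagln was called in 2, Cnn1 in 1 and Cald1 in 0 of the 6 fits.

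The summed log values of the 13 genes ranged from 56.2 to 58.1 without and from 52.3 to 53.4 with the drug, and none was at 0. In these bulk cultures fewer cells of a type and less RNA per cell cannot be told apart. Of 14 fibroblast markers 1 was called, the growth factor receptor gene Pdgfrb, which rose (0.32, adjusted p = 0.0358), and the sums overlapped (63.6 to 64.6 without and 64.3 to 64.8 with the drug). The collagen genes Col1a1 and Col1a2 differed by -0.06 and -0.00. Among 16 matrix genes and targets of TGF-beta or YAP, 3 fell and 0 rose (median -0.10). Ccn2, connective tissue growth factor, read 6.15, 6.29 and 6.25 without and 5.73, 5.83 and 5.61 with the drug, a difference of -0.51 ± 0.06 (0.00215). Thbs1, thrombospondin 1, differed by -0.33 ± 0.04 (0.00308). Both calls held with any 1 array left out. Tgfb3, a TGF-beta ligand, fell by 0.41 (0.0381, called in 0 of 6 fits), and Ccn1, the close relative of Ccn2, differed by -0.20 without passing (0.19).

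**Figure D3:**
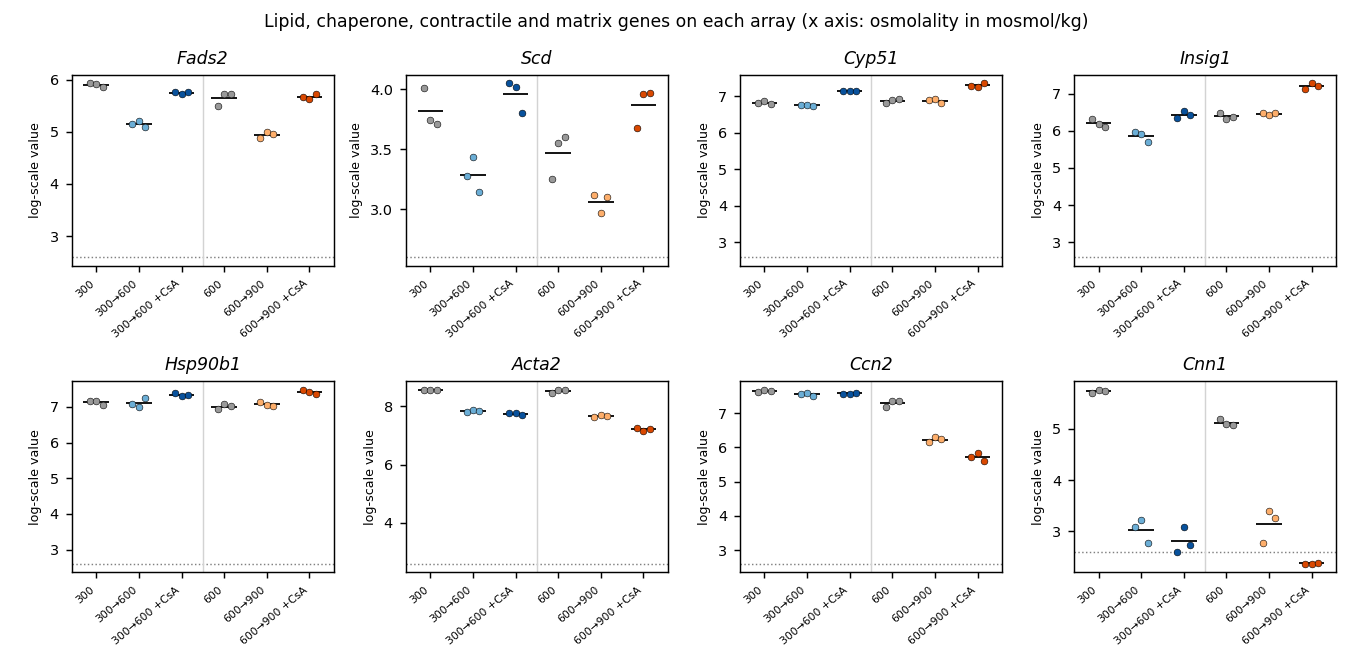
Log-scale values of 8 lipid, chaperone, contractile and matrix genes on each of the 18 arrays (points, 3 per group) with group means (bars), by osmolality in mosmol/kg and cyclosporin A (CsA); the dotted line is the median lower quartile, 2.605, and each panel has its own scale. Fads2 and Cyp51 are higher with the drug at both challenges. The Acta2 and Ccn2 values with the drug lie apart from those without it at the 900 challenge. For neither did the limma difference of drug effects between challenges pass (adjusted p = 0.0598 and 0.0683).

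Genes that define the IMCD cell were not called. Of 21 principal cell genes 0 passed the limma test (4 were lower at an unadjusted p under 0.05), with a median of -0.09, and the sums were lower with the drug (112.3 to 114.5, against 115.9 to 116.8). Aqp2, the vasopressin-regulated water channel, read 8.02, 7.92 and 7.88 without and 7.65, 7.74 and 7.70 with the drug. Its groups did not overlap, but the difference of -0.24 had a 95% interval from -0.55 to 0.06 and did not pass (adjusted p = 0.589). Aqp3 differed by -0.06, Avpr2 by -0.07 and Slc14a2 by -0.01. Differences in the principal cell list ran from -0.49 to 0.06, and 4 of 21 were above 0. In 7 genes the values with the drug lay all below those without it, and in 0 all above. Over all features these shares were 7.47% and 8.3%. Of 7 genes of osmolyte accumulation 0 were called (median 0.04, 0 at an unadjusted p under 0.05). Akr1b1, the aldose reductase that makes sorbitol, differed by 0.04 (95% interval -0.09 to 0.17), the inositol transporter gene Slc5a3 by 0.04 and Nfat5, the tonicity-responsive factor of the NFAT family, by -0.16 (0.692).

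Genes of the known target pathway of the drug were not called. In the limma test 0 of 16 calcineurin and NFAT genes passed (median -0.00, 1 at an unadjusted p under 0.05). Rcan1, a calcineurin inhibitor and a standard NFAT target, differed by 0.04, with a 95% interval from -0.13 to 0.20. The catalytic subunit genes Ppp3ca and Ppp3cb differed by 0.02 and -0.00. Of 14 cyclophilin genes 0 were called (median 0.08, 3 at an unadjusted p under 0.05), with 0.03 for Ppia, the gene of the main binding protein of the drug, and 0.13 for the ER cyclophilin Ppib (adjusted p = 0.251). Of 14 drug efflux and metabolism genes 0 were called (median 0.04, 2 at an unadjusted p under 0.05), and the transporter gene Abcb1b, whose P-glycoprotein carries cyclosporin A, differed by 0.30 (0.135).

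Further lists had no member called by limma, given here with the genes measured, the median and the number at an unadjusted p under 0.05. They were the ion pumps and volume regulation (15, -0.03, 2), magnesium, calcium and potassium handling (11, -0.06, 0) and the intercalated cell (14, -0.10, 1). The same held for the loop of Henle (9, -0.07, 1), the proximal tubule (13, -0.10, 1), tubule injury (11, 0.07, 6) and MHC class II (9, -0.15, 2). No member was called in cell cycle (26, 0.08, 5), early response factors (28, 0.01, 4), EGF receptor family and ligands (12, -0.04, 0), hypoxia and glycolysis (20, 0.04, 5), epithelial junctions and keratins (17, -0.03, 5) and reference genes (9, -0.01, 1). Beside these counts, 2990 of all 28328 features were at an unadjusted limma p under 0.05. The injury markers Havcr1 (0.16), Lcn2 (0.19) and Spp1 (-0.03) did not pass. Differences in the tubule injury list ran from -0.49 to 0.57. Of its 6 genes at an unadjusted p under 0.05, 4 were higher and 2 lower. In p53 targets 1 of 19 fell, the polo-like kinase gene Plk2 (-0.26, adjusted p = 0.0139, called in 2 of 6 fits with 1 array left out). In the endothelial list 1 of 12 rose (median 0), the VEGF receptor gene Kdr (0.41, 0.0179, called in 2 of 6). Over all 36 lists, 45 of 617 measured genes rose and 9 fell, beside 0.357% and 0.148% of all 28328 features. The lists were chosen with earlier results of these data known, so these totals do not measure enrichment.

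**Figure D4:**
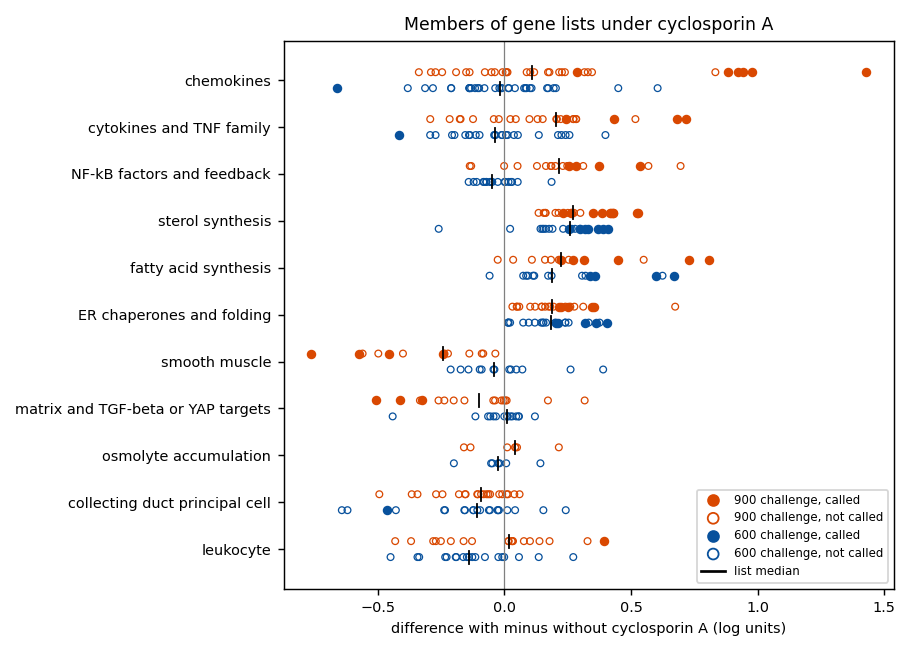
Differences with minus without cyclosporin A (log units) for the measured members of 11 gene lists, 1 circle per gene, at the 900 challenge (orange) and the 600 challenge (blue); filled circles were called and black ticks are list medians. Chemokine and NF-kB medians were 0.11 and 0.22 at the 900 challenge and -0.02 and -0.05 at the 600 challenge, and sterol medians were 0.27 and 0.26.

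Outside the lists, the 15 largest rises of named genes included Gsc2, a homeobox gene, at 1.05 ± 0.19 (adjusted p = 0.0247). Its level went from 1.34 to 2.39 and thus stayed under the lower quartile. Tmem100, a membrane protein gene, was among them too, at 0.67 ± 0.08 (0.00145). With 1 array left out, Gsc2 was called in 1 of the 6 fits (adjusted p 0.0326 to 0.107) and Tmem100 in all 6. The 15 largest falls included several dim features. They were led by the protease genes Prss44 (-0.89, 0.0339) and Astl (-0.81, 0.0344) with Megf6 (-0.82, 0.0223) between them, and held Dpep2 (-0.70), C4h12orf71 (-0.69), Nat8 (-0.67), Tedc2 (-0.60) and Cox4i2 (-0.58). Brighter ones were Cdc42ep1 (-0.61, 0.0377), an effector of the GTPase Cdc42, Fhl1 (-0.56, 0.0488), a LIM domain protein of muscle, and Sdc3 (-0.51, 0.0418), a cell surface proteoglycan. Car3, carbonic anhydrase 3, read 5.35, 5.06 and 5.28 without and 4.77, 4.55 and 4.80 with the drug, a difference of -0.52 ± 0.08 (0.0109). Its groups were separate, and the call was lost only without the third array without the drug (-0.49, adjusted p = 0.0626). Of the other falls named among these 15 outside the contractile and matrix lists, none was called in more than 2 of the 6 fits with 1 array left out.

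The osmotic step from the 600 culture to the 900 challenge called 4934 features (17.4%), 1822 higher (6.43%) and 3112 lower (11%), and it shares the 3 arrays without the drug with the comparison above, so its values are only set beside the drug's. All 13 contractile genes fell with the step (median -1.09) and the 4 called ones fell further with the drug: Acta2 went from 8.52 in the 600 culture to 7.66 and then 7.20, and Ccn2 from 7.30 to 6.23 and 5.72. Of the chemokines 9 rose and 2 fell with the step. Ccl20 went from 4.20 in the 600 culture to 5.55 and, with the drug, 6.47, and Cxcl1 from 5.17 to 5.70 and 6.64. Cxcl6 went the other way first, from 4.30 to 3.79, and reached 5.22 with the drug. Fads2 had fallen from 5.65 to 4.94 and stood at 5.67 with the drug. Ptgs2 rose from 3.30 to 5.07 and 5.70.

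The same drug at the 600 challenge, in cells grown at 300 mosmol/kg and on other arrays, called 116 features (0.409%), 65 higher (0.229%) and 51 lower (0.18%). The lists of calls shared 32 features, which are 22.4% of the calls at 900 and 27.6% of those at 600, and 31 of the 32 had the same direction (29 higher, 2 lower). Of the lipid lists, 7 of 20 sterol genes (median 0.26) and 4 of 15 fatty acid genes (0.19) rose at the 600 challenge, among them Cyp51 by 0.39, Fads2 by 0.60, Scd by 0.67 and Fdft1 by 0.41. Acat2 (0.26, adjusted p = 0.159), Idi1 (0.28, 0.212) and Fasn (0.32, 0.0611), called at 900, did not pass there. ER chaperones rose in 5 of 22 (0.18), and Mmp9 by 0.78. The chemokine, cytokine and NF-kB lists had 0 members higher there, with 1, 1 and 0 lower (Cxcl11 and Il1a) and medians of -0.02, -0.04 and -0.05, and the contractile and matrix lists had 0 members lower.

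Whether the drug effects differed was tested directly, as the effect at 900 minus the effect at 600. It was called for 13 features (0.0459%), 11 positive (0.0388%) and 2 negative (0.00706%). Cxcl6 had a difference of effects of 1.55 ± 0.18 (adjusted p = 0.00342), since its effect at 600 was -0.12 from a level of 8.54. Cxcl1 (0.95 ± 0.10, 0.00299) and Ccl20 (1.06 ± 0.11, 0.00299) had effects of -0.01 and -0.14 at 600. Without the drug these genes stood at 8.07 and 4.81 at the 600 challenge and at 5.70 and 5.55 at the 900 challenge. The part of the level in these differences was not tested. Cxcl11 (0.99 ± 0.11, 0.00342) differed mainly through its fall at 600 (-0.66), and Il1a (0.85 ± 0.11, 0.0155) moved in opposite directions, 0.43 at 900 and -0.42 at 600, both called. Csf3 (0.58), Birc3 (0.52) and Sod2 (0.36) were also called. The differences for Cxcl6, Cxcl1, Ccl20 and Cxcl11 were called in all 12 fits with 1 array left out. In those fits Il1a was called in 7, Birc3 and Efhd1 in 5, Csf3 in 2 and Sod2 in 1. Centring the arrays on their medians and the replicate block also ended the calls of Csf3 and Sod2. The lower side held Efhd1, a calcium-binding mitochondrial protein gene (-0.62 ± 0.09, 0.0248), and 1 feature without a symbol. For Acta2 (-0.36, adjusted p = 0.0598) and Ccn2 (-0.53, 0.0683) the difference between challenges did not pass, so their falls are not shown to be particular to the 900 challenge. For the sterol gene Cyp51 it was 0.04 (0.94), with a 95% interval from -0.10 to 0.18. The cells differed in the osmolality of growth as well as in the osmolality reached, which cannot be told apart here.

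**Figure D5:**
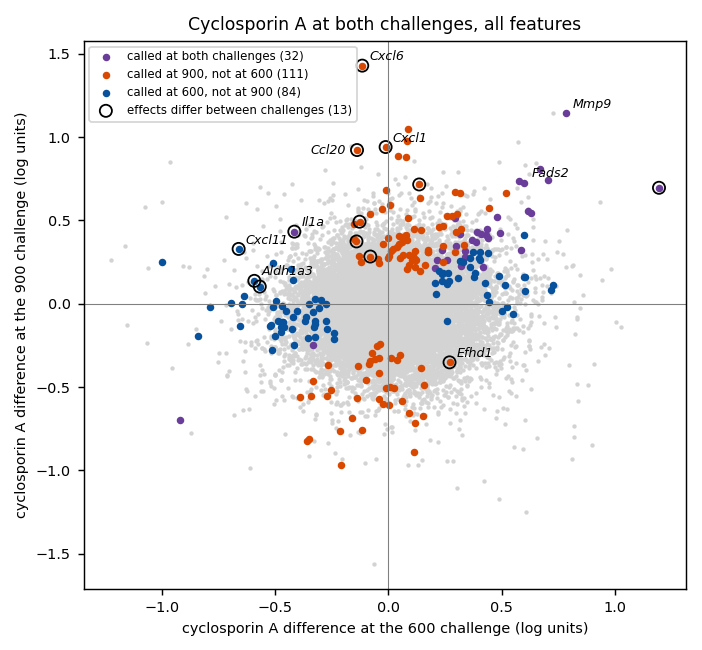
Cyclosporin A difference at the 900 challenge (vertical) against that at the 600 challenge (horizontal), both in log units, 1 point per feature, with the 13 features whose effects differed circled. Cxcl6, Cxcl1 and Ccl20 lie high near 0 on the horizontal axis, while Mmp9 and Fads2 are among the 32 features called at both challenges (purple).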

How the data were processed

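RNA for 18 arrays (6 groups of 3) was labelled with Affymetrix whole-transcript kits after Qiagen RNeasy extraction, per the labels' protocols. The deposited value of each feature was treated as a score on a log scale: it runs from 0 to 9.504, and the base, the summarisation and the normalization are not given in the sources used here (the series text names BRB Array Tools). Values were used as deposited, with no filter or pseudocount. Array signal over background is not given, and precision is limited by having 3 arrays a group. The mean of each of the 6 groups was fitted over all 18 arrays with limma 3.58.1 in R 4.3.3 (residual 12, prior 2.03 degrees of freedom), with Benjamini-Hochberg adjustment over 28328 features at 0.05. The fit was tried on simulated data with 50 features changed at 900 by each of 4 sizes. It recovered 8% of those changed by 0.25 units, 54% at 0.5, 82% at 1 and 96% at 2. It also called 8 unchanged features for the drug effect at 900 and 5 for the difference of effects. The log2 scale assumed for the limma test was not needed, since p-values do not depend on the base.

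Symbols came from the platform annotation: 15295 features have 1, 322 several (not named) and 12711 none listed. In lists a gene was read by its brightest feature. Named genes were the 15 largest rises and falls past the threshold without overlap and with 1 symbol (placeholder names passed over), the 5 largest each way for the difference of effects, and list members. The 36 lists, and the comparison itself, were chosen with earlier results of these data known. Promoters were RefSeq, GRCr8. Alternatives were other samples in the fit, centring, quantile scaling, a level filter, variance settings, array weights, feature means, the replicate block and leaving out arrays.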

Additional observations from a re-analysis of the deposited data

Results flagged for a closer look

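The drug effect at the 900 challenge differed from that at the 600 challenge for the following genes by the direct test in limma (Benjamini-Hochberg adjusted p under 0.05 over all features), given as the effect at 900 minus the effect at 600 in log units. Among chemokines the difference was 1.55 for Cxcl6, 1.06 for Ccl20, 0.99 for Cxcl11 and 0.95 for Cxcl1. Among other secreted factors it was 0.85 for Il1a, 0.62 for the complement gene C3 and 0.58 for Csf3. With 1 of the 12 arrays left out in turn, the 4 chemokines were called in all 12 fits, Il1a and C3 in 7 and Csf3 in 2. C3 rose at 900 (0.49 ± 0.06, adjusted p = 0.00153) and had an effect of -0.13 at 600. Birc3 (0.52) and Sod2 (0.36) had effects of 0.37 and 0.28 at 900 and of -0.14 and -0.08 at 600, and their differences were called in 5 and 1 of the 12 fits.

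For Aldh1a3, a retinaldehyde dehydrogenase gene, the difference was 0.73. Its values at 900 overlapped (5.83, 5.92 and 5.68 without and 6.06, 5.85 and 5.93 with the drug), and it fell at 600 by 0.59 (adjusted p = 0.00192). For Ifi47, an interferon-induced GTPase gene, the difference was 0.67, with 0.10 at 900 and a fall at 600 of 0.57 (0.00356). Efhd1 had the opposite sign, with a difference of -0.62 (-0.35 at 900 and 0.27 at 600). The remaining feature, without a symbol, rose at both challenges, by 0.70 at 900 and by 1.20 at 600. With 1 array left out, the differences of Aldh1a3 and Efhd1 were called in 5, that of Ifi47 in 2 and that of the feature without a symbol in 1 of the 12 fits. Over all 20 alternatives Ifi47 lost its call in 14 and the feature without a symbol in 16. C3, Aldh1a3 and Ifi47 are named because this test called them.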

How the results depend on the processing

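No result changed sign under any alternative run. Features called at 900, 600 and for the difference of effects (143, 116 and 13) became 0, 0 and 5 with only the groups compared in the fit, 233, 182 and 28 without features under the lower quartile, and 383, 272 and 37 with a variance trend. With 1 array left out they ranged from 43 to 76, 39 to 67 and 4 to 17. The replicate block gave 119, 91 and 9. Deviations of same-numbered arrays from their group means had correlations of 0.01, 0.01 and -0.06 at 900 and of 0.05, 0.02 and 0.07 at 600. Differently numbered arrays had -0.06 to 0.05 at 900 and -0.08 to 0.03 at 600. These values do not settle whether the numbers pair the arrays. The numbers are those of the array titles. For the arrays numbered 3 in both groups of the 900 challenge, the source names give another number. Median centring (120) and quantile scaling (158) stayed within 1.5 times. In every list the fit of 6 arrays called 0 members. With a trend the counts were 10 for NF-kB, 13 for ER chaperones, 6 for ATF4, 5 for matrix and 9 for NRF2. ER chaperones numbered 2 after centring, 9 with the level filter, 3 with a robust prior, 2 with the block and 8 with feature means, and NRF2 targets 5 with the filter and 6 with feature means. Smooth muscle had 2 after centring and 2 with array weights, fibroblast 0 with the block and leukocyte 0 with a robust prior. With 1 array left out the ranges were 1 to 3 for smooth muscle and for cytokines, 6 to 8 for sterol genes, 2 to 3 for NF-kB, 1 to 2 for ATF4, 0 to 2 for ER chaperones and NRF2, 0 to 1 for prostaglandin, endothelium and p53, and 0 to 0 for fibroblast and leukocyte. The fits with 1 array left out hold fewer arrays, and the causes of these shifts were not tested.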

Other observations

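Of the called genes not described above, several act in cytokine signalling, and they are named after their values were seen. The calls in this section were not followed through the fits with 1 array left out. Of the 70 features that were, 23 kept the call in all 6 fits. Socs3, the feedback inhibitor of interleukin-6 type receptors, rose by 0.57 ± 0.09 (adjusted p = 0.0167), from 3.55 to 4.12, and Cd40, a TNF family receptor, by 0.39 (0.0223). Ripk2, a kinase in NOD receptor signalling, rose by 0.34 (0.0167). At the 600 challenge these 3 genes differed by -0.03, 0.08 and 0.04, and the difference between challenges did not pass for any of them (adjusted p = 0.203, 0.462 and 0.311). Sqstm1, the autophagy receptor p62, rose by 0.29 (0.00869) and Tfrc, the transferrin receptor, by 0.27 (0.0477).

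Further called genes belong to the endoplasmic reticulum and membrane lipids: Serp1, a protein of the translocon, rose by 0.37 (0.0125), the oligosaccharyltransferase subunit gene Rpn1 by 0.28 (0.0223) and Lpcat3, which places polyunsaturated fatty acids in phospholipids, by 0.32 (0.00208). Each was called at the 600 challenge too (0.39, 0.34 and 0.24). Secreted factors among the falls were Tnfrsf11b, the decoy receptor osteoprotegerin (-0.39, 0.0222), and Angpt2, angiopoietin 2 (-0.47, 0.0125).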
